A study of Mus musculus with 20 samples.

Results

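The genes described here are the translation initiation factors of the mouse liver, taken as the rows of the raw count tables whose symbol begins with Eif1 to Eif6 and does not carry the pseudogene mark -ps. The rule found 58 of 50559 gene rows, and 53 of the 58 were expressed highly enough to be tested (5 or more of the 20 libraries at 1 CPM or above). CPM is the count scaled to the library total, adjusted by TMM in the values below. RNA was sequenced from MYC-driven liver tumors and from control livers of female C57BL/6J mice, labelled C57Bl6J;WT, with 5 libraries in each of 4 groups. Tumors were raised by hydrodynamic gene transfer, a rapid tail vein injection that brings plasmids into hepatocytes, together with the Sleeping Beauty transposase, which inserts the transgenes into the genome. All tumors carried a MYC transgene under the EF1a promoter. In FGF19 + MYC tumors it was combined with FGF19, the intestinal hormone that represses bile acid synthesis, in Aldafermin + MYC tumors with Aldafermin, an FGF19 analog altered at its N-terminus, and in sgTrp53 + MYC tumors with CRISPR/Cas9 directed at Trp53. The control livers are labelled healthy and not treated, whereas the text of the study describes controls given an RFP plasmid by the same injection, so whether these livers were injected could not be settled here. No group received MYC alone, so the partners of MYC can be compared only between tumor groups. The sgTrp53 + MYC samples are named by their titles alone, since their treatment label reads None. Each tumor library came from an individual tumor.

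Translation initiation begins when the eIF2 complex brings the initiator tRNA to the small ribosomal subunit, which eIF1, eIF1A, eIF3 and eIF5 prepare for scanning. The mRNA is recruited through its cap by eIF4F, made of the cap-binding protein eIF4E, the helicase eIF4A and the scaffold eIF4G, while the 4E-binding proteins hold eIF4E back. eIF2B recharges eIF2 with GTP, and the eIF2 kinases block this step under stress. MYC is well known to raise the transcription of genes of ribosome production and translation, and binds with its partner MAX to E-boxes in the DNA.

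The canonical E-box CACGTG, which reads alike on both strands, was searched in the RefSeq promoter windows, which run from 250 bases before to 50 bases after each gene start. A window was found for 42 of the 53 tested members, with 55 windows in all, and 12 of the 55 (21.8%) held the motif. The share was 9.71% over the windows of all genes tested and 7.15% over all windows of the table. Of the members that were higher in the pooled FGF19/Aldafermin + MYC tumors than in liver, 9 of 33 genes with a window (27.3%) held it, against 13.3% of all genes higher in that comparison. The stretches around the motif are shown, along the strand of the gene and with the motif in capitals, for the 4 members with the largest increase among those that hold it before the start site.
Eif5a2, GRCm38.p6 chr3:28781115-28781210, plus strand: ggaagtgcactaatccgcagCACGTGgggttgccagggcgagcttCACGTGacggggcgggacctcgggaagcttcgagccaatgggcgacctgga
Eif4e, GRCm38.p6 chr3:138527159-138527254, plus strand: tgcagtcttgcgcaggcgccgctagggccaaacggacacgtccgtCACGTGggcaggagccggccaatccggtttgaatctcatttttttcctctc
Eif5a, GRCm38.p6 chr11:69921410-69921505, minus strand: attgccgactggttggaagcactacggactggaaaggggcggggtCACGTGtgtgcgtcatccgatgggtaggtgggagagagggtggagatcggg
Eif4a1, GRCm38.p6 chr11:69672562-69672657, minus strand: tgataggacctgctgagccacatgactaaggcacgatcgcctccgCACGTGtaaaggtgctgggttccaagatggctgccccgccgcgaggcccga
The motif in the middle of each stretch began 117, 64, 74 and 189 bases before the start site in Eif5a2, Eif4e, Eif5a and Eif4a1; Eif5a2 and Eif4e held it more than once in these windows, and Eif5a also held it in the window of another start site. These sequences and their coordinates come from GRCm38.p6, whereas the reads were aligned to mm39. A match in letters is a description of the window, and binding was not measured.

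The libraries held 18004977 to 66354724 reads assigned to genes. The sgTrp53 + MYC libraries were the deepest (54042455 to 66354724) and were deposited in a table of their own. Their share of reads that fell on more than 1 gene was 11.1% to 14.6%, against 3.03% to 6.30% in the other groups, so that table and group cannot be told apart wherever sgTrp53 + MYC tumors are compared. Trp53, the targeted gene, stood at 176, 159, 129, 135 and 90.8 CPM in Aldafermin + MYC tumors, 109.7, 155, 148, 148 and 137 CPM in FGF19 + MYC tumors, 18.7, 79.9, 35.4, 51 and 48.8 CPM in sgTrp53 + MYC tumors and 33.4, 36.4, 34.5, 30.9 and 28.8 CPM in liver. The sgTrp53 + MYC libraries were thus all below the other tumors, while their range spanned that of liver. A guide that cuts the gene need not remove its transcript. Summed over 7 hepatocyte markers, the libraries held 180600 to 227200 CPM in liver and 3328 to 28390 CPM in tumors. The proliferation markers Mki67 and Top2a summed to 2.71 to 12.3 CPM in liver and 232 to 531 CPM in tumors. Summed macrophage and endothelial markers were 185 to 279 and 152 to 227 CPM in liver, and 47.0 to 224 and 42.0 to 167 CPM in tumors. The genes within these lists were not all alike. Cd68, found in macrophages at large, was 13.3 to 18.9 CPM in liver and 30.3 to 130 CPM in tumors, whereas Clec4f, the Kupffer cell marker, was 136 to 189 CPM in liver and at most 47.2 CPM in tumors. Kdr and Stab2 were lower in every tumor than in every liver, while the ranges of Pecam1 and Cdh5 overlapped. Afp and Gpc3, which mark liver tumors, summed to 1.36 to 7.03 CPM in liver. They summed to 2639 to 5077 CPM in Aldafermin + MYC, 2163 to 4382 CPM in FGF19 + MYC and 456 to 1664 CPM in sgTrp53 + MYC tumors. For this sum the sgTrp53 + MYC range did not overlap with the other tumors, whereas the ranges of the other summed lists did. Summed T cell, stellate or fibroblast, biliary and erythroid markers were 1.32 to 3.12, 211 to 315, 6.62 to 16.1 and 105 to 256 CPM in liver, and 0.269 to 3.89, 55.4 to 958, 0.0496 to 232 and 14.3 to 529 CPM in tumors. The highest biliary sum was that of sgTrp53 + MYC replicate 2 alone, with Krt19 at 191 CPM, and the highest stellate or fibroblast sum that of Aldafermin + MYC replicate 3, with Col1a1 at 871 CPM. The genes of the stellate or fibroblast list went apart. Col1a1 was 6.76 to 22.8 CPM in liver and 27.1 to 871 CPM in tumors. Dcn was 151 to 240 CPM in liver and 5.28 to 44.9 CPM in tumors. Lrat was 19.9 to 34.4 CPM in liver and 0.0992 to 3.62 CPM in tumors, while the ranges of Pdgfrb overlapped. Every gene of these 9 lists was detected in each group. The part of these cell-type differences in the values below was not tested, and in bulk tissue fewer cells of a type and less RNA per cell cannot be told apart.

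Most initiation factor transcripts were more abundant in tumors than in liver. In the pooled FGF19/Aldafermin + MYC tumors, 40 of the 53 tested members (75.5%) were higher, 7 (13.2%) were lower and 6 did not pass the threshold of an adjusted p of 0.05 (edgeR quasi-likelihood test, Benjamini-Hochberg over 14333 genes). Over all genes tested, 39.2% were higher and 34.5% lower (73.7% in all). In sgTrp53 + MYC tumors, 38 members (71.7%) were higher and 6 (11.3%) lower, against 36.9% and 33.0% of all genes (69.9% in all). The median log2 fold change of the members was 0.94 in the pooled tumors and 0.87 in sgTrp53 + MYC tumors, and that of all genes 0.10 and 0.07. Both comparisons share the same 5 livers. In both, 36 members were higher and 6 were lower, 0 were called in opposite directions, and Eif5, Eif2ak3, Eif3j2 and Eif4g1 passed in neither.

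Every library of the pooled tumors lay above every liver for 34 of the 53 members and below for 5, against 28.5% and 25.7% of all genes. For sgTrp53 + MYC tumors the counts were 34 and 3, against 28.8% and 27.4%. The normalization bears on the split. The TMM factors were 0.615 to 0.682 in liver and 0.997 to 1.31 in tumors. With scaling to total counts alone, without these factors, the median of all genes moved from 0.10 to 0.94 in the pooled tumors and from 0.07 to 0.95 in sgTrp53 + MYC tumors. On that scale the pooled tumors had 46 members higher and 3 lower, sgTrp53 + MYC tumors had 46 and 1, and the member medians were 1.79 and 1.76. Of all 14333 genes, 11392 and 10957 were called in either direction on that scale.

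**Figure D1:**
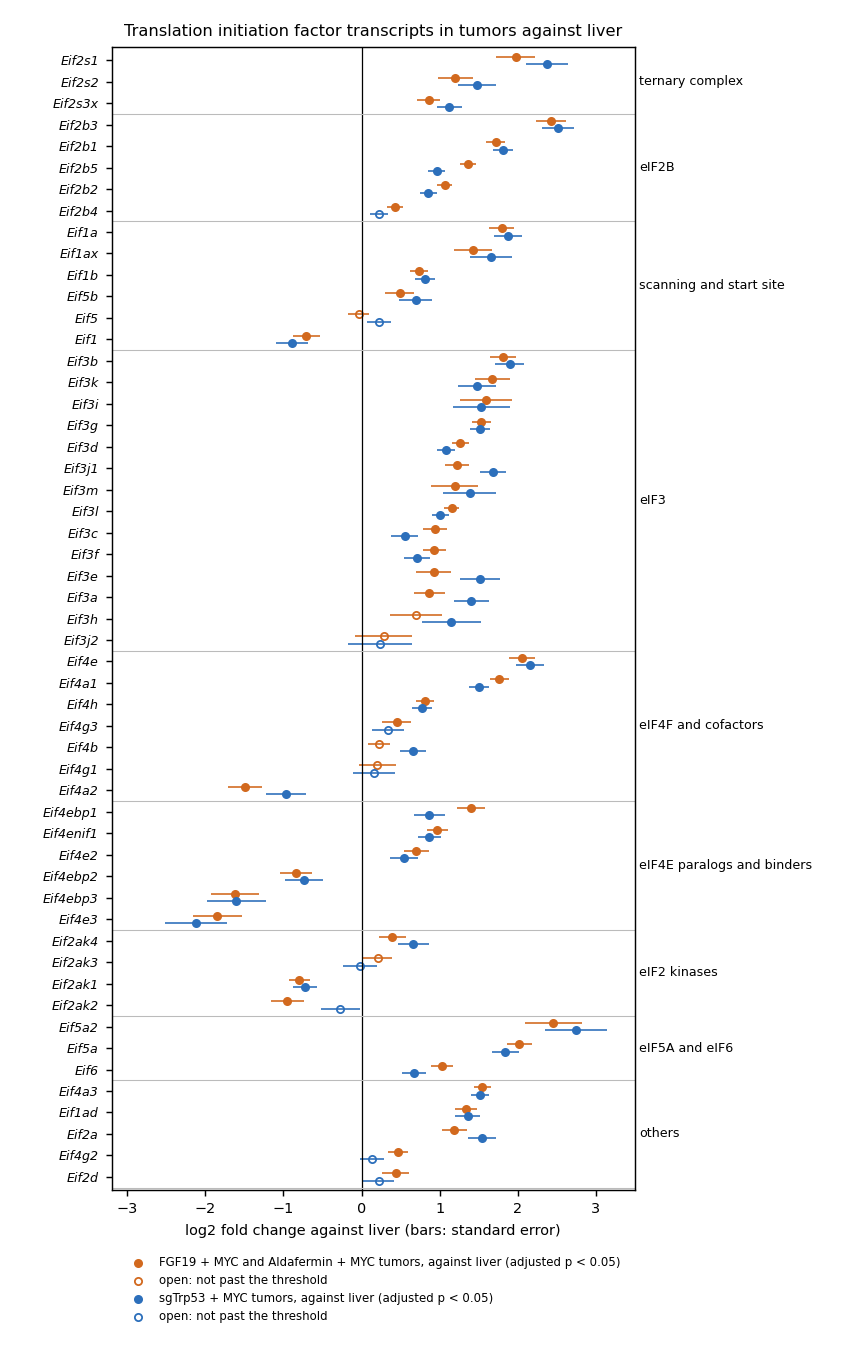
Log2 fold change against liver (horizontal axis, bars show the standard error) of the 53 tested members, ordered by role, in pooled FGF19/Aldafermin + MYC tumors (orange, n = 10) and sgTrp53 + MYC tumors (blue, n = 5) against 5 livers. Filled points passed an adjusted p of 0.05; the eIF2 and eIF3 subunits lie to the right of 0, while Eif4e3, Eif4ebp3 and Eif4a2 lie furthest to the left.

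The 3 expressed subunits of eIF2 were higher in both comparisons. In Eif2s1, the 5 livers stood at 34.8, 41.1, 43.6, 39.2 and 46.7 CPM. It reached 167, 141, 128, 127 and 264 CPM in Aldafermin + MYC tumors, 212, 134, 152, 168 and 119.6 CPM in FGF19 + MYC tumors and 396, 191, 146, 160.2 and 175 CPM in sgTrp53 + MYC tumors. Eif2s1 encodes the alpha subunit that the eIF2 kinases phosphorylate. Every tumor library lay above every liver, with a log2 fold change of 1.97 ± 0.24 (SE; adjusted p = 5.47e-07) in the pooled tumors and 2.38 ± 0.27 (adjusted p = 2.02e-07) in sgTrp53 + MYC tumors. sgTrp53 + MYC replicate 1 stood far above the others of its group. Eif2s2, the beta subunit, rose by 1.20 and 1.48 on the log2 scale, and Eif2s3x, the X-linked gamma subunit, by 0.86 and 1.13. Eif2s2 stood at 201, 138, 137, 123 and 263 CPM in Aldafermin + MYC tumors, 235, 134, 169, 179 and 126 CPM in FGF19 + MYC tumors, 339, 171, 134, 184 and 205 CPM in sgTrp53 + MYC tumors and 65.3, 73.6, 74.2, 72.7 and 84.8 CPM in liver. Eif2s3x stood at 189, 192, 126, 174 and 208 CPM in Aldafermin + MYC tumors, 139, 193, 215, 214 and 153 CPM in FGF19 + MYC tumors, 208, 178, 199, 214 and 286 CPM in sgTrp53 + MYC tumors and 91.6, 93.9, 117, 92.3 and 103 CPM in liver. Neither overlapped between tumors and livers. Eif2s1 lies at chr12:78907681-78935018, plus strand (GRCm39), where Atp6v1d and Plek2 overlap it on the other strand. Eif2s2 and Eif2s3x have near-identical copies elsewhere (Gm9892 and Gm2223), so their own counts are uncertain. Other members described below also have copies of at least 97% identity. They include Eif4e (Gm7327, 1342 counts in all libraries), Eif3m (Gm7658, 5112), Eif1 (Gm16378, 941, among others) and Eif5a (Eif5al3-ps, 938). Eif2s3y, the Y-linked gamma subunit, had 0 counts in all 20 libraries of these female mice.

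All 5 subunits of eIF2B, the exchange factor of eIF2, were higher in the pooled tumors, and 4 of 5 in sgTrp53 + MYC tumors. In Eif2b3, the 5 livers stood at 7.96, 10.3, 10.2, 9.97 and 10.6 CPM. It reached 67.2, 54.8, 37.9, 38.9 and 61.8 CPM in Aldafermin + MYC tumors, 65.5, 43, 51.3, 62.6 and 43.3 CPM in FGF19 + MYC tumors and 69.1, 59.1, 34.6, 64.1 and 53.7 CPM in sgTrp53 + MYC tumors. Eif2b3, the gamma subunit at chr4:116876588-116945947, plus strand, thus differed from liver by 2.42 ± 0.19 (adjusted p = 9.23e-10) and 2.52 ± 0.21 (adjusted p = 2.17e-09), with no overlap. Eif2b1, the alpha subunit, stood at 118, 107, 83.8, 97 and 108 CPM in Aldafermin + MYC tumors, 101, 104, 101, 117 and 103 CPM in FGF19 + MYC tumors, 145, 117, 83.7, 94.1 and 114 CPM in sgTrp53 + MYC tumors and 29.8, 32.1, 33.1, 31.3 and 31.7 CPM in liver. It rose by 1.72 and 1.81, Eif2b2 (beta) by 1.06 and 0.85, and Eif2b5, the catalytic epsilon subunit, by 1.36 and 0.96. Eif2b4 (delta) rose by 0.43 in the pooled tumors and had 0.23 in sgTrp53 + MYC tumors (adjusted p = 0.0882). Per kilobase of transcript, Eif2b3 had the lowest level of the 5 subunits in liver, 3.27 ± 0.352 CPM per kb (mean ± SD, n = 5), against 22.2 ± 1.65 for Eif2b4. In FGF19 + MYC tumors the levels were 17.7 ± 3.52 for Eif2b3 and 31.1 ± 0.721 for Eif2b4.

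The factors of scanning and start site choice did not move as 1 group: 4 of 6 were higher in both comparisons and 1 was lower. Eif1a and Eif1ax, which both encode eIF1A, rose by 1.79 and 1.43 in the pooled tumors and by 1.88 and 1.66 in sgTrp53 + MYC tumors. Eif1a was measured at 153, 156, 120.0, 129 and 206 CPM in Aldafermin + MYC tumors, 149.5, 129, 155, 183 and 122 CPM in FGF19 + MYC tumors, 196, 144, 136, 178 and 143 CPM in sgTrp53 + MYC tumors and 40.7, 36.4, 37.7, 58.1 and 43.9 CPM in liver. For Eif1ax the values were 147, 102, 94.3, 91.4 and 220.1 CPM in Aldafermin + MYC tumors, 216, 98.6, 125, 124 and 93.7 CPM in FGF19 + MYC tumors, 237, 134, 116, 138 and 145 CPM in sgTrp53 + MYC tumors and 48.1, 44.8, 49.6, 50.9 and 50.2 CPM in liver. Neither overlapped with liver, and replicate 1 of both FGF19 + MYC and sgTrp53 + MYC was the highest of its group in Eif1ax. Eif5b, which joins the ribosomal subunits, gave 118, 151, 114, 149.6 and 81.3 CPM in Aldafermin + MYC tumors, 88.7, 144, 146, 163 and 132 CPM in FGF19 + MYC tumors, 83.4, 136, 156, 166 and 199.9 CPM in sgTrp53 + MYC tumors and 94, 105, 101, 77.4 and 81.2 CPM in liver. Tumors and livers overlapped, and the differences were 0.49 ± 0.19 (adjusted p = 0.0251) and 0.69 ± 0.21 (adjusted p = 0.00718). Eif1 encodes eIF1, which guards the fidelity of start codon selection. It stood at 241, 215, 187, 196 and 309 CPM in Aldafermin + MYC tumors, 305, 204, 226, 244 and 218 CPM in FGF19 + MYC tumors, 288, 280.0, 136, 169 and 162 CPM in sgTrp53 + MYC tumors and 319.8, 400.2, 362, 418 and 414 CPM in liver. All tumor libraries lay below the lowest liver, with -0.71 ± 0.17 (adjusted p = 0.00105) and -0.89 ± 0.20 (adjusted p = 0.000741). With total counts alone these differences became 0.13 and -0.03 (edgeR quasi-likelihood test, adjusted p = 0.421 and 0.885). The call of Eif1 thus depends on the scaling in both comparisons. Its close relative Eif1b went the other way, by 0.73 and 0.81. The libraries of Eif5, the GTPase-activating factor of eIF2, held 293, 258, 214, 237 and 345 CPM in Aldafermin + MYC tumors, 291, 269, 323, 337 and 221 CPM in FGF19 + MYC tumors, 364, 292, 265, 388 and 353 CPM in sgTrp53 + MYC tumors and 285, 296, 294, 246 and 305 CPM in liver. They overlapped, with -0.03 ± 0.13 (adjusted p = 0.825) and 0.22 ± 0.15 (adjusted p = 0.208).

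eIF3 is the large scaffold of the small subunit. Of its 14 transcripts, 12 were higher in the pooled tumors and 13 in sgTrp53 + MYC tumors, and 0 were lower. The core subunit gene Eif3b, at chr5:140405057-140429117, plus strand, stood at 576, 532, 407, 460.3 and 332 CPM in Aldafermin + MYC tumors, 381, 511, 529, 522 and 448 CPM in FGF19 + MYC tumors, 315, 482, 512, 573 and 599.9 CPM in sgTrp53 + MYC tumors and 132, 127, 136, 152 and 120.2 CPM in liver. There was no overlap with liver, and the differences were 1.82 ± 0.17 (adjusted p = 8.14e-09) and 1.89 ± 0.18 (adjusted p = 2.1e-08). Eif3g, Eif3k and Eif3i rose by 1.54, 1.68 and 1.59 in the pooled tumors and by 1.52, 1.48 and 1.53 in sgTrp53 + MYC tumors. Eif3e, a subunit gene also known as Int6, gave 200.0, 153, 115, 128 and 267 CPM in Aldafermin + MYC tumors, 248, 145, 158, 178 and 122 CPM in FGF19 + MYC tumors, 406, 263, 178, 222 and 219.9 CPM in sgTrp53 + MYC tumors and 79.8, 85.2, 89.2, 77.3 and 120.1 CPM in liver. Its pooled tumors overlapped with liver and its sgTrp53 + MYC tumors did not, at 0.92 ± 0.23 (adjusted p = 0.00116) and 1.51 ± 0.26 (adjusted p = 3.29e-05). Eif3c and Eif3f were among the smaller differences of sgTrp53 + MYC tumors, at 0.55 and 0.71. Eif3j2 had 0.28 ± 0.37 and 0.24 ± 0.41 and passed in neither comparison (adjusted p = 0.489 and 0.622). It shares 99.4% identity over 2379 bases with Eif3j1, and reads of the pair may be split between them. Eif3j1 rose by 1.22 and 1.68.

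The eIF3 transcripts also showed how single tumors differed within their groups. Eif3h stood at 288, 224, 201, 188 and 429 CPM in Aldafermin + MYC tumors, 585, 210.1, 217, 209.9 and 193 CPM in FGF19 + MYC tumors, 805, 359, 205, 269 and 236 CPM in sgTrp53 + MYC tumors and 143, 157, 135, 185 and 225 CPM in liver. Aldafermin + MYC replicate 5, FGF19 + MYC replicate 1 and sgTrp53 + MYC replicate 1 held by far the highest Eif3h of their groups. The same 3 libraries were high in Eif3i and Eif3m and low in Eif3a and in Eif4g1. On the log2 scale, Eif3i exceeded Eif3a by 1.42 to 1.70 in these 3 libraries, while the difference ranged from -1.48 to 0.19 in the other 17. Over 13794 genes, the deviation of these 3 libraries from their groups was lower the longer the transcript (Spearman's rho -0.506 to -0.438, against -0.353 to 0.413 in the others). Over the 53 members alone it was -0.562 to -0.356 in these 3 libraries and -0.656 to 0.699 in the other 17, so the members by themselves did not set them apart by length. This is a description across genes of single libraries, and genes are not independent replicates. The median SD of the members within tumor groups was 0.31 on the log2 scale with these libraries and 0.22 without them, and 0.16 in liver. Without the 3 libraries, chosen after the data were seen, the pooled tumors had 43 members higher and 7 lower, and sgTrp53 + MYC tumors 41 and 6. Of the 14148 genes in that fit, 11093 and 10583 were called in either direction. Eif3h passed in sgTrp53 + MYC tumors (1.15 ± 0.38, adjusted p = 0.0109) but not without sgTrp53 + MYC replicate 1 alone (log2 fold change 0.66). The part of RNA quality or fragment length in this pattern was not tested.

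**Figure D2:**
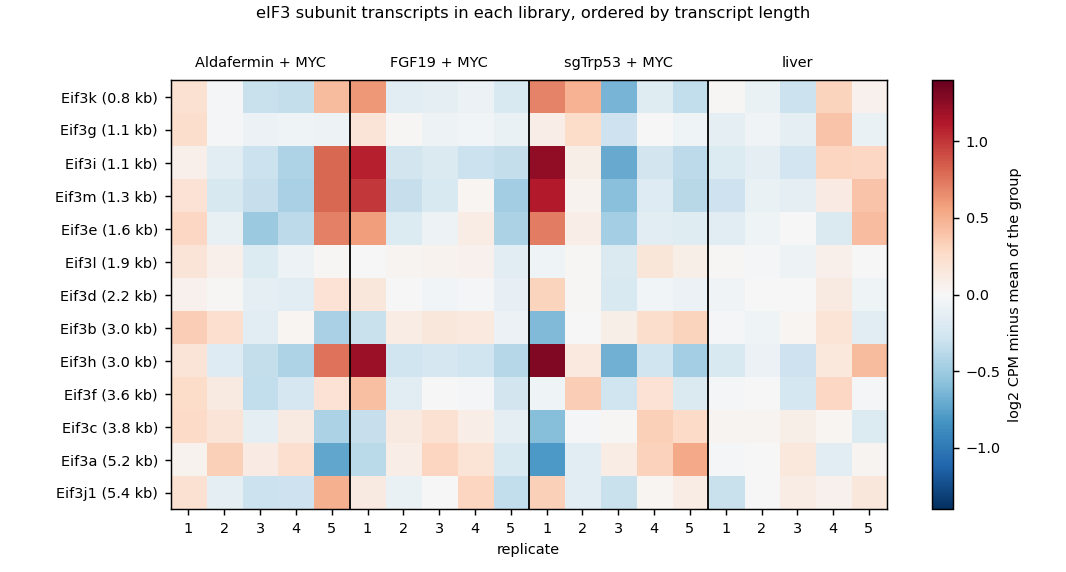
Log2 CPM of 13 eIF3 transcripts (rows, ordered from short to long transcripts, lengths in kb) in each of the 20 libraries (columns, by group and replicate), as the difference from the mean of the group. Red is above and blue below the group mean; Aldafermin + MYC replicate 5, FGF19 + MYC replicate 1 and sgTrp53 + MYC replicate 1 are red for Eif3i, Eif3m and Eif3h and blue for Eif3a.

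Within the cap-binding complex eIF4F, the members moved in different directions. In Eif4e, the 5 livers stood at 34.4, 41.8, 49.9, 40.0 and 46.7 CPM. It reached 202, 158, 132, 150.4 and 244 CPM in Aldafermin + MYC tumors, 191, 158, 183, 208 and 141 CPM in FGF19 + MYC tumors and 243, 186, 150.1, 187 and 187 CPM in sgTrp53 + MYC tumors. Eif4e encodes the protein that binds the mRNA cap, and lies at chr3:138231936-138265457, plus strand. Tumors and livers did not overlap, at 2.05 ± 0.16 (adjusted p = 1.16e-09) and 2.16 ± 0.18 (adjusted p = 2.57e-09). The scaffold gene Eif4g1 had 799.7, 868, 758, 861 and 420.1 CPM in Aldafermin + MYC tumors, 524, 924, 974, 887 and 820.4 CPM in FGF19 + MYC tumors, 321, 579, 853, 905 and 1142 CPM in sgTrp53 + MYC tumors and 703, 700.0, 808, 589 and 603 CPM in liver. Its tumors and livers overlapped widely, at 0.20 ± 0.24 (adjusted p = 0.449) and 0.16 ± 0.27 (adjusted p = 0.613). It passed in neither comparison. Eif4g3, its paralog, had 0.45 and 0.35 (adjusted p = 0.0314 and 0.14). Eif4h, a cofactor of the helicase, rose by 0.82 and 0.78.

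The helicase genes Eif4a1 and Eif4a2 moved apart. In Eif4a1, the 5 livers stood at 322, 325, 364, 359 and 330.2 CPM. It reached 1211, 1160, 1016, 1089 and 1366 CPM in Aldafermin + MYC tumors, 1105, 1134, 1186, 1260 and 1030 CPM in FGF19 + MYC tumors and 1169, 1025, 835, 933 and 864 CPM in sgTrp53 + MYC tumors. All tumors lay above all livers, at 1.77 ± 0.12 (adjusted p = 1.09e-10) and 1.51 ± 0.13 (adjusted p = 4.45e-09). Eif4a2 ran the other way, with 88.5, 122, 134, 108 and 169.8 CPM in Aldafermin + MYC tumors, 204, 124, 119, 122 and 133 CPM in FGF19 + MYC tumors, 323, 163, 154, 126 and 189 CPM in sgTrp53 + MYC tumors and 305, 391, 322, 278 and 562 CPM in liver. It was lower in the pooled tumors with no overlap, at a log2 fold change of -1.49 ± 0.21 (adjusted p = 3.23e-06). In sgTrp53 + MYC tumors the value was -0.96 ± 0.26 (adjusted p = 0.00253), with replicate 1 within the livers and the other 4 below them. Eif4a1 lies at chr11:69557762-69563249, minus strand and Eif4a2 at chr16:22925894-22932886, plus strand. Eif4a-ps4, a row outside the members, is 99.9% identical to Eif4a1 over 1218 bases and held 98683 counts in all, with a log2 fold change of 1.73 against liver in the pooled tumors. Adding its counts to Eif4a1 left 1.76 and 1.50 for the latter (alternative added after seeing the data).

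The log2 ratio of Eif4a1 to Eif4a2 within a library does not depend on the scaling between libraries. It was 0.08, -0.27, 0.18, 0.37 and -0.77 in liver, around equal counts of both genes. It reached 3.77, 3.25, 2.92, 3.33 and 3.01 in Aldafermin + MYC tumors, 2.44, 3.20, 3.32, 3.37 and 2.96 in FGF19 + MYC tumors and 1.85, 2.65, 2.44, 2.89 and 2.19 in sgTrp53 + MYC tumors. The ratio was higher in every tumor than in every liver, by 3.24 in the pooled tumors (p = 0.000666, adjusted p = 0.00466) and by 2.49 in sgTrp53 + MYC tumors (p = 0.00794, adjusted p = 0.0222; exact two-sided permutation tests over libraries, adjusted over 28 tests of 7 gene pairs). These are the smallest p-values that 10 against 5 and 5 against 5 libraries allow. It was also higher in the pooled than in sgTrp53 + MYC tumors, by 0.75 with some overlap (exact permutation test, p = 0.00466, adjusted p = 0.0218), and by 0.72 without the 3 libraries named above.

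The genes that bind or resemble eIF4E divided evenly, with 3 of 6 higher and 3 of 6 lower in both comparisons. Eif4ebp1 encodes a repressor that holds eIF4E until mTOR phosphorylates it. It stood at 199, 155, 135, 120.1 and 213 CPM in Aldafermin + MYC tumors, 245, 142, 148, 144 and 141 CPM in FGF19 + MYC tumors, 141, 122, 76.9, 121 and 108 CPM in sgTrp53 + MYC tumors and 59.1, 65.8, 47.5, 74.3 and 64 CPM in liver. All tumors lay above all livers, at 1.40 ± 0.18 (adjusted p = 1.2e-06) and 0.87 ± 0.20 (adjusted p = 0.000748). Its paralog Eif4ebp2 was the reverse, with 81.8, 117, 106, 87.2 and 58.6 CPM in Aldafermin + MYC tumors, 93.4, 94.2, 129, 118 and 98.6 CPM in FGF19 + MYC tumors, 54.3, 68.8, 108, 173 and 123 CPM in sgTrp53 + MYC tumors and 182, 169.5, 195, 167 and 163 CPM in liver. The pooled tumors lay below all livers, at -0.84 ± 0.20 (adjusted p = 0.00102), whereas sgTrp53 + MYC replicate 4 lay among the livers (-0.73 ± 0.24, adjusted p = 0.0111). With total counts alone the differences of Eif4ebp2 turned to 0.01 and 0.17 and passed in neither comparison.

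The third paralog, Eif4ebp3, ranged over 15.3 to 55.6 CPM in liver, against 6.96 to 16.6 in Aldafermin + MYC, 8.54 to 20.7 in FGF19 + MYC and 5.71 to 18.9 in sgTrp53 + MYC tumors. The ranges overlapped, and the differences were -1.62 ± 0.31 (adjusted p = 0.000102) and -1.61 ± 0.38 (adjusted p = 0.000903). Maskbp3 overlaps Eif4ebp3 on the same strand, so its reads are uncertain. In GENCODE M39 a gene also overlaps Eif4e3 (Gm20696), Eif4ebp1 (Gm63996) and Eif4ebp2 (Gm48086) on the same strand. The same holds for Eif1b, Eif4b and Eif5. Eif4e3, an eIF4E relative, showed the largest decrease of all members in both comparisons. It stood at 1.51, 1.24, 4.22, 4.88 and 1.68 CPM in Aldafermin + MYC tumors, 1.28, 2.55, 1.21, 2.82 and 2.67 CPM in FGF19 + MYC tumors, 2.17, 1.96, 3.04, 1.35 and 1.34 CPM in sgTrp53 + MYC tumors and 7.39, 9.46, 8.39, 6.08 and 11.6 CPM in liver. No tumor reached the lowest liver, at -1.84 ± 0.32 (adjusted p = 3.5e-05) and -2.12 ± 0.40 (adjusted p = 9.43e-05). In sgTrp53 + MYC tumors Eif4e3 was the 1 member still lower with total counts alone; in the pooled tumors Eif4a2, Eif4e3 and Eif4ebp3 were. Eif4e2, a competing cap-binding protein, and Eif4enif1, a carrier of eIF4E, rose by 0.70 and 0.97 in the pooled tumors and by 0.55 and 0.87 in sgTrp53 + MYC tumors.

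**Figure D3:**
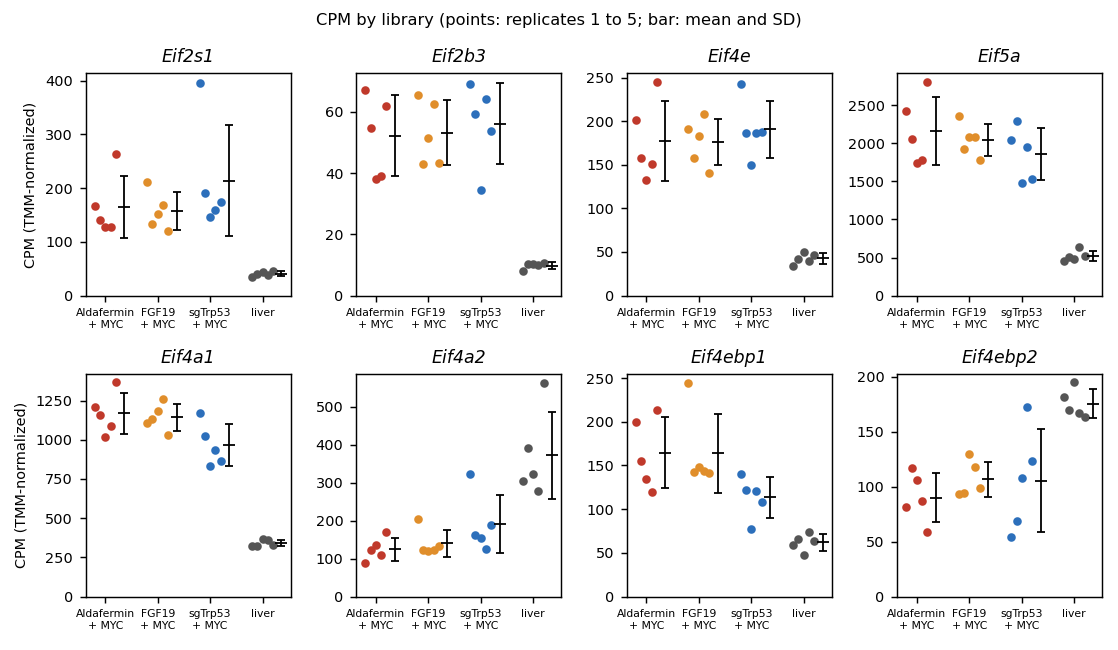
CPM of 8 members in each library (points, replicates 1 to 5 from left to right; bars show the mean and SD, n = 5) by group. Eif2s1, Eif2b3, Eif4e, Eif5a, Eif4a1 and Eif4ebp1 were higher in every tumor than in every liver, whereas Eif4a2 and Eif4ebp2 were lower in the pooled tumors and overlapped with liver in sgTrp53 + MYC tumors.

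The balance of these partners was compared by ratios within each library. The log2 ratio of Eif4ebp1 to Eif4ebp2 was -1.51 ± 0.34 (mean ± SD, n = 5) in liver, 0.87 ± 0.67 in Aldafermin + MYC, 0.60 ± 0.47 in FGF19 + MYC and 0.20 ± 0.85 in sgTrp53 + MYC tumors. It rose above liver without overlap in the pooled tumors, by 2.24 (exact permutation test, p = 0.000666, adjusted p = 0.00466), and in sgTrp53 + MYC tumors, by 1.71 (exact permutation test, p = 0.00794, adjusted p = 0.0222). Between the tumors the difference was 0.54 (exact permutation test, p = 0.159, adjusted p = 0.247). The ratio of Eif4e to Eif4ebp1 was 0.02, 0.02, -0.03, 0.32 and 0.20 in Aldafermin + MYC tumors and -0.35, 0.15, 0.30, 0.53 and 0.00 in FGF19 + MYC tumors. In sgTrp53 + MYC tumors it was 0.79, 0.61, 0.96, 0.63 and 0.80, and in liver -0.78, -0.66, 0.07, -0.89 and -0.45. The sgTrp53 + MYC libraries lay above all others, with a difference of the pooled tumors from them of -0.64 (exact permutation test, p = 0.000666, adjusted p = 0.00466), or -0.59 without the 3 libraries. Here too, the table of origin cannot be told apart from the group.

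**Figure D4:**
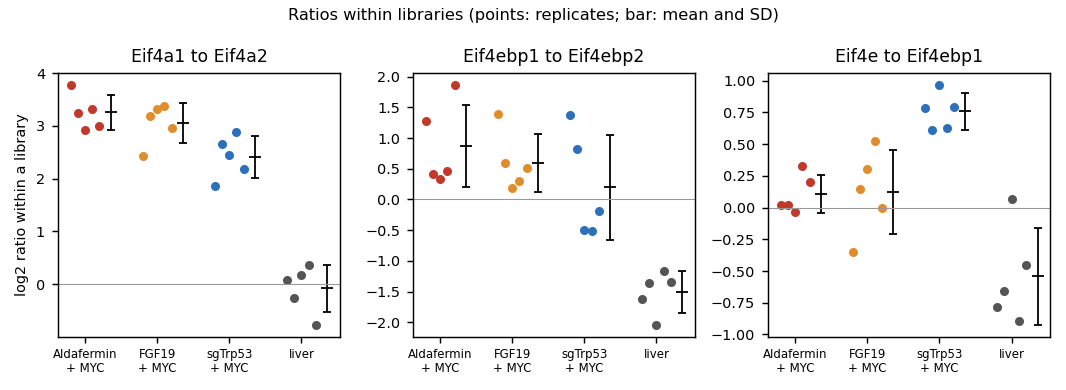
Log2 ratios of Eif4a1 to Eif4a2, Eif4ebp1 to Eif4ebp2 and Eif4e to Eif4ebp1 within each library (points, replicates 1 to 5; bars show the mean and SD, n = 5) by group. Eif4a1 to Eif4a2 averaged -0.08 in liver and 2.41 to 3.26 in the tumor groups, and Eif4e to Eif4ebp1 was highest in sgTrp53 + MYC tumors (0.76).

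Of the 4 eIF2 kinases, 1 was higher and 2 were lower in the pooled tumors, and 1 was higher and 1 lower in sgTrp53 + MYC tumors. Eif2ak1 (HRI, the heme-regulated kinase) stood at 43.6, 49.1, 41.1, 50.5 and 35.4 CPM in Aldafermin + MYC tumors, 32.3, 50.7, 50.3, 49.2 and 46.9 CPM in FGF19 + MYC tumors, 32.1, 50.4, 52.1, 50.7 and 50.6 CPM in sgTrp53 + MYC tumors and 70.9, 91.3, 85.8, 67 and 74.6 CPM in liver. All tumors lay below all livers, at -0.80 ± 0.13 (adjusted p = 1.88e-05) and -0.72 ± 0.16 (adjusted p = 0.000377). With total counts alone, however, the differences were 0.06 and 0.17 and passed in neither comparison. Eif2ak2 (PKR, activated by double-stranded RNA) was lower in the pooled tumors, at -0.95 ± 0.21 (adjusted p = 0.000469), and had -0.27 ± 0.25 in sgTrp53 + MYC tumors (adjusted p = 0.339). Its livers held 21.7, 19.5, 28.9, 14.8 and 22.4 CPM. Eif2ak3 (PERK, of the endoplasmic reticulum) held 16, 20.5, 30.9, 19.6 and 13.5 CPM in Aldafermin + MYC tumors, 18.9, 30.2, 29.4, 29.5 and 25.2 CPM in FGF19 + MYC tumors, 12.4, 19.1, 21, 27.4 and 19 CPM in sgTrp53 + MYC tumors and 16.6, 20.1, 20.9, 24 and 18.6 CPM in liver. It passed in neither comparison, at 0.21 and -0.02 (adjusted p = 0.335 and 0.936). Eif2ak4 (GCN2, which senses uncharged tRNA) held 29.9, 27.2, 27.2, 24.6 and 19.1 CPM in Aldafermin + MYC tumors, 15.7, 24.4, 25.9, 21 and 18 CPM in FGF19 + MYC tumors, 15.9, 22.4, 36.2, 34.8 and 30.8 CPM in sgTrp53 + MYC tumors and 19.4, 18.9, 18.1, 16.6 and 15.3 CPM in liver. It was higher by 0.67 in sgTrp53 + MYC tumors (adjusted p = 0.00587). In the pooled tumors it lay at the threshold, at 0.39 ± 0.17 (adjusted p = 0.0496), and kept its call in 3 of the 15 fits that left out 1 library each. The log2 ratio of Eif2s1 to Eif2ak3, the kinase target and 1 of its kinases, rose from 1.03 ± 0.22 in liver to 3.04 ± 0.84, 2.55 ± 0.54 and 3.37 ± 0.96 in Aldafermin + MYC, FGF19 + MYC and sgTrp53 + MYC tumors (exact permutation tests, adjusted p = 0.00466 and 0.0222 against liver).

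eIF5A and eIF6 act around elongation and ribosome assembly despite their names, and their 3 genes rose in both comparisons. In Eif5a, the 5 livers stood at 453, 509.6, 480.1, 637 and 519 CPM. It reached 2424, 2061, 1747, 1786 and 2803 CPM in Aldafermin + MYC tumors, 2353, 1924, 2086, 2087 and 1783 CPM in FGF19 + MYC tumors and 2047, 2288, 1481, 1954 and 1529 CPM in sgTrp53 + MYC tumors. No tumor overlapped with liver, at 2.02 ± 0.16 (adjusted p = 1.01e-09) and 1.84 ± 0.17 (adjusted p = 1.52e-08). Eif5a, at chr11:69807422-69827276, minus strand, had the highest level per kilobase of all members in each group, 380.0 ± 51.6 CPM per kb in liver and 1582 ± 328 in Aldafermin + MYC tumors. Its paralog Eif5a2 had the lowest, 0.084 ± 0.0552 and 0.408 ± 0.15. Eif5a2 stood at 2.77, 2.48, 1.09, 1.42 and 2.61 CPM in Aldafermin + MYC tumors, 2.46, 3.24, 2.02, 3.46 and 2.99 CPM in FGF19 + MYC tumors, 3.69, 2.45, 2.86, 3 and 2.89 CPM in sgTrp53 + MYC tumors and 0.0717, 0.367, 0.839, 0.341 and 0.518 CPM in liver. These values rest on 1, 10, 19, 5 and 13 counts in the livers and on 37 to 248 counts in the tumors. The fitted differences, 2.46 ± 0.37 (adjusted p = 6.17e-06) and 2.75 ± 0.40 (adjusted p = 4.75e-06), were the largest of all members but rest on few counts. Eif6, which keeps the ribosomal subunits apart, held 194, 168, 192, 133 and 229 CPM in Aldafermin + MYC tumors, 216, 166, 170.0, 164 and 166 CPM in FGF19 + MYC tumors, 167, 165, 100.5, 139 and 131 CPM in sgTrp53 + MYC tumors and 85.1, 84.6, 91, 97.2 and 82.5 CPM in liver. Its tumors lay above all livers, at 1.03 ± 0.14 (adjusted p = 1.51e-06) and 0.67 ± 0.15 (adjusted p = 0.000636).

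In liver, the order of levels per kilobase after Eif5a was Eif1 (281 ± 30.5 CPM per kb), Eif4a1 (191 ± 11.3) and Eif4a2 (151 ± 46.6). Eif4a1 and Eif4a2 overlapped there. In all tumor groups Eif4a1 came second and Eif3i, Eif3k and Eif3g followed, and Eif4a2 had left the first 6. The members with less canonical roles also rose in the pooled tumors, 5 of 5, and 3 of 5 in sgTrp53 + MYC tumors. Eif4a3, a core protein of the exon junction complex, rose by 1.55 and 1.52, Eif2a, which can deliver initiator tRNA in place of eIF2, by 1.19 and 1.54, and Eif1ad by 1.34 and 1.36. Eif4g2, an eIF4G relative that does not bind eIF4E, rose by 0.47 in the pooled tumors and had 0.13 in sgTrp53 + MYC tumors (adjusted p = 0.432), and Eif2d had 0.44 (adjusted p = 0.0312) and 0.22 (adjusted p = 0.325). Eif2c5, Eif4e1b and Eif4a3l1 had 0 counts in all libraries, and Eif4a3l2 had 51 counts in all. The symbol Eif2c5 follows eIF2C, an older name of the argonaute proteins, and was caught by the naming rule.

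Tumors with different partners of MYC were compared with each other. For sgTrp53 + MYC tumors, the partner cannot be told apart from the table of origin. Between the pooled FGF19/Aldafermin + MYC tumors and sgTrp53 + MYC tumors, few initiation factors differed: 2 of 53 (3.77%) were higher and 4 (7.55%) lower, against 11.6% and 12.1% of all genes (23.7% in all). Eif2b5 stood at 155, 146, 130.2, 121 and 167 CPM in Aldafermin + MYC, 132, 138, 151, 141 and 131 CPM in FGF19 + MYC and 116, 114, 86.9, 101 and 118 CPM in sgTrp53 + MYC tumors. It was the 1 member whose libraries did not overlap between these tumors (3.28% of all genes were higher without overlap and 2.42% lower), and it was higher by 0.40 ± 0.10 on the log2 scale (adjusted p = 0.00567), and kept its call in all 15 fits that left out 1 library. Eif4ebp1, with the values given above, was higher by 0.53 ± 0.18 on the log2 scale with overlap (adjusted p = 0.0343).

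Among the lower genes, Eif2ak2 stood at 9.33, 13.3, 15.9, 13.8 and 8.25 CPM in Aldafermin + MYC, 7.48, 12.2, 11.9, 9.48 and 9.7 CPM in FGF19 + MYC and 8.89, 15.4, 25.8, 18.2 and 20.5 CPM in sgTrp53 + MYC tumors. It was lower in the pooled tumors, at a log2 fold change of -0.68 ± 0.21, with overlap, since sgTrp53 + MYC replicate 1 lay among the lowest tumors (adjusted p = 0.0257). Eif3a, the largest eIF3 subunit, held 337, 413, 353, 384 and 198 CPM in Aldafermin + MYC tumors, 302, 418, 482, 448 and 338 CPM in FGF19 + MYC tumors, 290.2, 456, 548, 637 and 734 CPM in sgTrp53 + MYC tumors and 196, 199.6, 223, 179.6 and 206 CPM in liver. It overlapped between the tumors, at -0.54 ± 0.19 (adjusted p = 0.0428). Eif3j1, a loosely bound subunit, held 109, 85.5, 76.1, 76.5 and 132 CPM in Aldafermin + MYC tumors, 111, 95.8, 103, 125 and 80.6 CPM in FGF19 + MYC tumors, 170.4, 122, 109, 138 and 146 CPM in sgTrp53 + MYC tumors and 34.1, 42, 45.4, 44.2 and 47.4 CPM in liver. Its tumors overlapped and were all above liver, at -0.46 ± 0.14 between the tumors (adjusted p = 0.0239). Eif4b, an RNA-binding cofactor of the helicase, was lower at -0.44 ± 0.14 (adjusted p = 0.0298).

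These counts turned on single libraries. Without sgTrp53 + MYC replicate 1, 7 members were higher, without FGF19 + MYC replicate 1, 4 were, and without Aldafermin + MYC replicate 1 or sgTrp53 + MYC replicate 3 or 5, 1 was. Without Aldafermin + MYC replicate 5, 7 members were lower, without FGF19 + MYC replicate 1, 6 were, without Aldafermin + MYC replicate 3 or sgTrp53 + MYC replicate 3, 2 were, and without sgTrp53 + MYC replicate 5, 0 were. Without the 3 libraries named above, 6 were higher and 9 lower, with all 6 of these genes still called. Over all genes, 4507 of 14148 were called in that fit, against 3399 of 14333 with all libraries. Of the 15 fits that left out 1 tumor library, Eif3a kept its call in 7, Eif4ebp1 in 9, Eif4b in 11, and Eif2ak2 and Eif3j1 in 13. An added correction for GC content and transcript length left 4 members higher and 3 lower, with 3678 of 13874 genes called. Under this correction Eif2b5, Eif2ak2, Eif3a and Eif3j1 no longer passed. Of the 20 members with a named gene on the opposite strand, Gm and Rik symbols set aside, 2 were called, and of the other 33, 4 were. Among those 4, Eif2b5, Eif4b and Eif4ebp1 do have Gm genes on the opposite strand, and only Eif3a has none. The part of such overlaps in the calls was not tested.

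Aldafermin + MYC and FGF19 + MYC tumors carry transgenes for related hormones, and between them 0 of 53 members and 0 of the 14333 genes were called (0.0% by edgeR's quasi-likelihood test; 1048 genes and 0 members at an unadjusted p under 0.05; 96 genes and 0 members with DESeq2; 59 genes and 0 members with edgeR's likelihood ratio test). The libraries of these groups overlapped for all 53 members, against 1.07% of all genes higher and 0.391% lower without overlap. The log2 differences ran from -0.45 in Eif5a2 (SE 0.36, adjusted p = 0.902) to 0.56 in Eif3j2 (SE 0.41, adjusted p = 0.885). The approximate 95% interval of the difference lay within -1 and 1 on the log2 scale for 50 of the 53 members, with a median half-width of 0.34. It did not for Eif3j2, Eif4e3 and Eif5a2, which are the 3 tested members of lowest counts. Eif4e differed by 0.01 ± 0.17, Eif4a1 by 0.03 ± 0.13 and Eif2s1 by 0.07 ± 0.26. Differences of a size within these intervals remain possible. The intervals do not give the smallest difference that 5 libraries per group could detect.

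Other genes of the pathway were taken from fixed lists, to be read against the shares of all genes: 39.2% higher and 34.5% lower in the pooled tumors, 36.9% and 33.0% in sgTrp53 + MYC tumors, and 11.6% and 12.1% between the tumors. Of 11 tested genes of elongation and termination, 9 were higher in both comparisons with liver and 0 lower. They included Eef1g, a subunit of the elongation factor that recharges eEF1A, at 2.20 ± 0.17 (adjusted p = 8.8e-10) and 2.32 ± 0.19 (adjusted p = 1.82e-09), and Abce1, which recycles ribosomes, at 1.75 and 1.87. Eef1e1, a member of the tRNA synthetase complex, rose by 2.54 and 2.69. Between the tumors 0 of the 11 were called (edgeR; Gspt2 had the smallest adjusted p, 0.144). Of 18 initiation partners, the pooled tumors had 11 higher and 5 lower, and sgTrp53 + MYC tumors 10 and 2. Bzw2, an eIF5 mimic, had the largest increase of that list, 4.36 ± 0.16 (adjusted p = 8.75e-14) and 4.43 ± 0.17 (adjusted p = 1.3e-13), and Pabpc4, a poly(A)-binding protein, followed with 2.58 and 2.81. Pdcd4, an inhibitor of eIF4A, was lower in the pooled tumors than in liver, at -1.24 ± 0.13 (adjusted p = 3.52e-08), and lower than in sgTrp53 + MYC tumors, at -0.98 ± 0.13 (adjusted p = 4.22e-05). In all, 4 of the 18 partners were lower in the pooled than in sgTrp53 + MYC tumors and 0 higher, among them Paip2b (-0.95), an inhibitor of poly(A)-binding proteins, and Pabpc1 (-0.51).

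Of 12 genes of the mTOR and MNK kinases, the pooled tumors had 4 higher and 5 lower, and sgTrp53 + MYC tumors 3 and 4, which is near the shares over all genes. Deptor, an inhibitor of mTOR, was lower in both, at -2.08 ± 0.22 in the pooled tumors (adjusted p = 4.8e-08). Mtor itself was lower in both, at -1.11 ± 0.15 (adjusted p = 1.3e-06) and -1.11 ± 0.18 (adjusted p = 1.71e-05), as was Mknk2, an eIF4E kinase, at -1.51 and -1.63. In sgTrp53 + MYC tumors Rps6kb1, a kinase below mTOR, rose by 1.15 and Rheb, the activator of mTOR, by 1.22 (adjusted p = 6.32e-06). Both were also called higher in the pooled tumors. Between the tumors 0 of the 12 passed in edgeR. Of 9 genes of the eIF2 stress response, the pooled tumors had 3 higher and 3 lower, and sgTrp53 + MYC tumors 2 and 5. Atf5, a transcription factor of this response, was lower in both, at -1.77 and -2.34, and Impact, an inhibitor of GCN2, rose by 0.99 and 1.71. Between the tumors, 4 of these 9 were higher and 1 lower in the pooled group: Trib3 by 1.72 ± 0.36 (adjusted p = 0.00224), Ppp1r15a, which directs the dephosphorylation of eIF2, by 0.94 ± 0.21 (adjusted p = 0.00366), and Ddit3 and Atf4. Impact was lower, at -0.71 ± 0.16 (adjusted p = 0.00366). Phosphorylation and protein levels were not measured here.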

How the data were processed

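Per the labels and the study's methods, total RNA was made into stranded poly(A) libraries and sequenced in pairs (bcl2fastq 2.20.0.422), and the authors aligned the reads to mm39 with HISAT2 and counted them per RefSeq gene with htseq-count. The strand setting of the counting is not given in the sources used here. The deposited values are raw read counts per gene, in 1 table for sgTrp53 + MYC tumors and 1 for the other groups; 5 summary lines of the counter were left out of library sizes.

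Groups and replicate numbers came from the labels. The 14333 genes that reached 1 CPM in 5 or more libraries were scaled by TMM. They were tested in 1 fit over all 4 groups with edgeR 4.0.16 in R 4.3.3. The quasi-likelihood F test was used, with Benjamini-Hochberg over all genes tested and a threshold of 0.05. A prior count of 2 entered the log2 CPM behind the ratios and the spread within groups, not the fitted fold changes. The 4 comparisons were the pooled FGF19/Aldafermin + MYC tumors, taken as the mean of both groups, and sgTrp53 + MYC tumors, each against liver and against each other, and Aldafermin + MYC against FGF19 + MYC. The fit was tested on simulated data. SE denotes the standard error of the log2 fold change, taken from its F statistic. Ratios between genes were tested by exact permutation with scipy 1.17.1. Alternatives included DESeq2 1.42.0. Levels per kb divide CPM by the length of the canonical GENCODE M39 transcript, and coordinates are GRCm39 unless stated. Counts of copies with high identity are uncertain where reads could be split.

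The members and gene lists were chosen with earlier results of these data known. The rule for named genes covered the 3 highest and 3 lowest called members of each comparison and a fixed set by role. Where no member was called, the fold change alone was used. Full values were given for these genes, with 3 exceptions. Eif4ebp3 was given by ranges, Eif3j2 by fold changes and Eif2b5 without its liver values. Up to 3 genes by adjusted p were named per pathway list and comparison. Depth ranged from 18004977 to 66354724 counts, and p-values measure the spread between tumors or livers of separate libraries.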

Additional observations from a re-analysis of the deposited data

Results flagged for a closer look

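Among 124 groups of 5 libraries screened, 16 held a library far from the other 4, where chance would give about 6.2. FGF19 + MYC replicate 1 was the highest of its group in Eif1ax (216 CPM), Eif3h (585 CPM), Eif4a2 (204 CPM), Eif4ebp1 (245 CPM) and Eif6 (216 CPM), and the lowest in Eif2ak1 (32.3 CPM). sgTrp53 + MYC replicate 1 was the highest of its group in Eif1ax (237 CPM), Eif2s1 (396 CPM) and Eif3h (805 CPM), and the lowest in Eif2ak1 (32.1 CPM). Aldafermin + MYC replicate 5 was the lowest of its group in Eif4g1 (420 CPM). Thus 11 of the 16 came from these 3 libraries, which had been singled out after the data were seen. The others were Eif2b1 in FGF19 + MYC replicate 4 (117 CPM, highest), Eif4ebp3 in Aldafermin + MYC replicate 4 (16.6 CPM, highest) and in FGF19 + MYC replicate 5 (20.7 CPM, highest), Eif2b3 in liver replicate 1 (7.96 CPM, lowest) and Eif3e in liver replicate 5 (120 CPM, highest). What sets these libraries apart was not tested.

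The difference from liver was itself different between the pooled and sgTrp53 + MYC tumors for 6 members, by edgeR's test of that contrast. The log2 difference was 0.398 for Eif2b5 and 0.533 for Eif4ebp1, and it was -0.678 for Eif2ak2, -0.543 for Eif3a, -0.462 for Eif3j1 and -0.439 for Eif4b. Group and table of origin cannot be told apart in this comparison.

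Outside the members, the pseudogene row Eif4a-ps4 rose by 1.73 on the log2 scale in the pooled tumors, close to Eif4a1, with which it is 99.9% identical. Whether those reads came from Eif4a1 was not tested.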

How the results depend on the processing

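The counts of members higher and lower than liver differed little under DESeq2, edgeR's likelihood ratio test, other size factors and filters, with 37 to 41 members higher in the pooled tumors when 1 library was left out and 7 lower in each case. Total counts alone were the exception, with 3 members lower and a median of 1.79 in the pooled tumors, and 1 lower and a median of 1.76 in sgTrp53 + MYC tumors. On that scale the log2 fold changes of Eif1 (0.126), Eif2ak1 (0.0596) and Eif4ebp2 (0.0126) turned positive in the pooled tumors, as did those of Eif2ak1 (0.173) and Eif4ebp2 (0.165) in sgTrp53 + MYC tumors. None of these values passed on that scale (edgeR quasi-likelihood test, adjusted p = 0.421, 0.752 and 0.962, then 0.424 and 0.585). The calls were thus lost and not reversed. In the pooled tumors, 43 of 47 called members kept their call in every leave-one-out fit and 40 in every other setting; in sgTrp53 + MYC tumors the counts were 43 and 39 of 44. Eif2ak4, Eif2d, Eif4g3 and Eif5b lost their calls without some libraries in the former, and Eif3h in the latter.

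Between the pooled and sgTrp53 + MYC tumors, each of the 6 calls was kept in most other settings but in none of the 6 cases in all. Of 13 settings, Eif4b kept its call in 12, Eif2ak2 and Eif3j1 in 11, Eif2b5 and Eif4ebp1 in 10 and Eif3a in 8. The number of members called also changed. The members higher were 4 with DESeq2, upper quartile factors or the GC and length correction, 1 with RLE factors or only the compared groups in the fit, 0 with no filter on low counts, and 6, with 9 lower, without Aldafermin + MYC replicate 5, FGF19 + MYC replicate 1 and sgTrp53 + MYC replicate 1. Over all 14333 genes, 4139 were called with DESeq2, 3452 with upper quartile factors and 3457 with RLE factors. With only the compared groups 2783 of 13888 were called, and with no filter 3806 of 29921. Leaving out 1 library gave 1 to 7 higher and 0 to 7 lower. The cause of these changes was not tested.

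Replicate numbers belong to different mice. Same-numbered samples of different groups correlated at -0.333 to 0.333 (median -0.0226, 30 pairs) in their deviations, others at -0.553 to 0.669 (median 0.00935, 120 pairs), so the samples share only a number. With the replicate number as a block, the pooled tumors had 39 members higher and 7 lower, sgTrp53 + MYC tumors 38 and 6, the comparison between them 2 and 3, and Aldafermin + MYC against FGF19 + MYC 0. Of all 14333 genes, 10544, 9981, 3120 and 0 were called in these comparisons with the block. The block with the GC and length correction gave 4 higher and 1 lower between the tumors, with 3377 of 13874 genes called. Depth limits Eif5a2, Eif3j2 and Eif4e3 most, and the table and preparation of the sgTrp53 + MYC libraries cannot be told apart from the group.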
